A study of Homo sapiens with 20 samples.

Results

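Hedgehog signalling was followed through 7 of its genes, IHH, PTCH1, SMO, SUFU, GLI1, GLI2 and GLI3, out of 19974 protein-coding genes in RefSeq GRCh38. For each gene, the peaks that overlapped the gene body or the 100 kb on either side of it were taken from 18 deposited ChIP-seq peak lists, which gave 2088 of 992895 peaks and, after merging within each target, 1049 of 550625 regions. The libraries came from HCT116, an established human colorectal carcinoma line, as MLL4 knockout (KO) or wild-type (WT) cells. MLL4, the product of KMT2D, is a histone H3 lysine 4 methyltransferase that works mainly at enhancers. Each genotype had 2 libraries for H3K4me3, for H3K27ac and for p53, and 1 each for the mark H3K4me1 and the enzymes MLL4 and MLL1. The labels name no treatment and do not say whether the KO line is 1 clone or whether replicates were separate cultures, so any spread between replicates may be technical.

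In the Hedgehog pathway, secreted ligands such as IHH bind the receptor PTCH1, which otherwise holds the membrane protein SMO inactive. Active SMO lets the transcription factors GLI2 and GLI3 escape SUFU, which retains GLI proteins in the cytoplasm, and GLI1 and PTCH1 are themselves classic target genes of the pathway. In the intestine, IHH is made by the epithelium and signals to the underlying mesenchyme, where PTCH1 and the GLI genes are chiefly active.

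H3K4me3 marks promoters, H3K27ac marks active promoters and enhancers, and H3K4me1 marks enhancers. MLL1 is a second H3K4 methyltransferase and p53 a sequence-specific transcription factor. The measurement is whether a peak was called, its width, and its fold enrichment, the authors' own value per peak of ChIP over local background. A region was retained if called in every library of its target, lost if all its WT libraries and none of its KO libraries called it, and gained in the opposite case. An own promoter lies within 1 kb of a start of the gene. For GLI1 and GLI3, whose starts were not matched, either gene end counts as a start. A distal region lies more than 1 kb from the ends and starts of all protein-coding genes. Promoter regions genome-wide are all regions that are not distal, so they also include regions at the far ends of genes. With 2 libraries against 2, the smallest two-sided exact permutation p is 0.333, so the values below carry no test, and those of H3K4me1, MLL4 and MLL1 have no replicate check.

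The KO label was checked on the MLL4 lists, which held 278 peaks in KO and 56770 in WT. The labelled cell type was checked by H3K4me3 at marker starts. It was called in every library at 5 of 10 epithelial markers (EPCAM, CDH1, KRT18, CDX2 and ELF3) and in no library at KRT20, VIL1, CDX1 and LGALS4. KRT8 had it in some libraries only. Of 5 blood markers SPI1 had it in every library, and of 5 fibroblast markers COL1A1 did. The epithelial share was not above the 60.3% of all protein-coding genes with H3K4me3 at the start in every library. The check therefore did not settle the cell type. The H3K27ac lists were shorter in KO (61959 and 65050 peaks) than in WT (139104 and 198757), and those of H3K4me1 likewise (43636 in KO, 125507 in WT). Read depth is not given in the sources used here, and the part of depth in the differences below was not tested.

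The 7 genes differ in their promoters, and 4 upstream sequences carry the contrasts described below. They are the 250 bases before the start, from RefSeq GRCh38.p14, read along the gene. PTCH1 is shown for a match to the GLI binding site GACCACCCA (TGGGTGGTC on the other strand), in capitals, at the start that follows chr9:95509267-95509516 on the minus strand. The first GLI2 start (chr2:120735618-120735867, plus strand) is rich in CpG and carried strong H3K4me3, whereas the second (chr2:120792031-120792280, plus strand) is poor in CpG and had none. IHH (chr2:219060922-219061171, minus strand) is rich in CpG and had none either.

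PTCH1: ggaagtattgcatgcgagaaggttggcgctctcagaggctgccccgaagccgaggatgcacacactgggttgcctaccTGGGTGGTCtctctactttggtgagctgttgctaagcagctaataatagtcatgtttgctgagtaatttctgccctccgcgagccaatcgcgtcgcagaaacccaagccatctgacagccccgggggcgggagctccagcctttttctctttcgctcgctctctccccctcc
GLI2 first start: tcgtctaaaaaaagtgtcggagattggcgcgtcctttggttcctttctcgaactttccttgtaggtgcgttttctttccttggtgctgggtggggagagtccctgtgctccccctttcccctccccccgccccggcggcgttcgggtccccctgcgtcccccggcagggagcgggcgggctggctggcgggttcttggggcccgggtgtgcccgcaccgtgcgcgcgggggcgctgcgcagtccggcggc
GLI2 second start: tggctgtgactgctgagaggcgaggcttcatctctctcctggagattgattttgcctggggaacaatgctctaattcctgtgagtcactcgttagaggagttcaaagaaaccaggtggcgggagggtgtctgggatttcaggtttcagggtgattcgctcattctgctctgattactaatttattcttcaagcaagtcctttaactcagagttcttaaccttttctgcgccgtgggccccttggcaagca
IHH: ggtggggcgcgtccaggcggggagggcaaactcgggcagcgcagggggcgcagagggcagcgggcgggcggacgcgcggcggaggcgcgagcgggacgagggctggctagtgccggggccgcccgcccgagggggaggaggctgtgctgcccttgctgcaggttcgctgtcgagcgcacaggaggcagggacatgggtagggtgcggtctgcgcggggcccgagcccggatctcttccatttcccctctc

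The GLI site of PTCH1 lies 172 bases before the start, on the strand opposite to the gene. The same letters, on either strand, occur in 42 of 22132 such upstream windows of protein-coding genes (0.19%), and in none of the other 9 windows held for IHH, PTCH1, SMO, SUFU and GLI2. The 9 bases sit inside the H3K4me3 domain of PTCH1 in 4 of 4 libraries and inside the MLL1 peak in both genotypes, but under no H3K27ac and no p53 peak in any library. CpG pairs numbered 29 in the IHH window, 26 at the first GLI2 start, 6 at the second GLI2 start and 13 in the PTCH1 window shown, against a median of 16 over all windows. The match is a description of these letters. GLI1 and GLI3 are named only.

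Promoter H3K4me3 was called in both genotypes at 5 of the 7 genes and at neither IHH nor GLI3. Among all protein-coding genes, 60.3% had it at the start in every library. Of 6 own-promoter H3K4me3 regions none was lost, beside 0.993% of promoter regions genome-wide, and all 6 were called in all 4 libraries. Over the whole windows 1 of 32 regions called in both WT libraries was lost (3.12%), beside 5.35% of H3K4me3 regions genome-wide. Without the first WT library the lost share was 25%. H3K27ac had a peak within 1 kb of a start in every KO library at 5 genes, PTCH1, SMO, SUFU, GLI1 and GLI2, and in every WT library at these 5 and at IHH. GLI3 had none. As merged regions, 0 of 11 own-promoter H3K27ac regions called in both WT libraries were lost, beside 24.5% of promoter regions genome-wide. Merging joins peaks over several kb, and of the 10 retained regions 5 had a peak within 1 kb of a start in all 4 libraries. At 2, in IHH and at the far end of GLI1, peaks that close were called in both WT libraries and in no KO library. Just past that GLI1 end, however, a further region had peaks within 1 kb of it in both KO libraries and in 1 WT library. All 10 retained regions had a lower mean fold in KO than in WT, with a median log2 ratio of -1.04, beside -0.92 at retained promoters genome-wide.

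IHH, the ligand, had no H3K4me3 at its start in any library, and H3K27ac within 1 kb of the start in WT alone. The H3K27ac fold over chr2:219056692-219060627, within the gene, was 3.67 and 4.43 in KO, against 6.6 and 8.55 in WT. The peaks there were 380 and 608 bp wide in KO. In WT the first library had separate peaks of 1370 and 2032 bp, the latter nearer the start with a fold of 5.1. The second WT library had a single peak of 3936 bp. The KO peaks lay 3004 and 3608 bp from the start, so that region counts as retained only through peaks inside the gene. p53 was called at the IHH start with folds of 7.15 and 7.62 in KO, against 11.3 and 23.3 in WT. In the first KO library the peaks lay on either side of the start, 258 and 189 bp from it, while the other libraries had a peak across it. The WT MLL4 list had a peak there with a fold of 5.66, and MLL1 was called in neither genotype.

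PTCH1, the receptor, has several starts, and the H3K4me3 lay chiefly over the internal ones. The domain chr9:95505209-95512606, which holds the printed start, had H3K4me3 folds of 90.4 and 131 in KO, against 107 and 120 in WT. Its peaks were 7243 and 7228 bp wide in KO and 7176 and 7224 bp wide in WT, so the libraries of the genotypes overlapped in fold and were nearly equal in width. The outermost start was weaker, with H3K4me3 folds of 16.6 and 25.6 in KO, against 17.9 and 50.6 in WT.

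Inside that domain PTCH1 had a pair of H3K27ac regions on either side of the printed window. The downstream region had folds of 16.0 and 11.6 in KO, against 15.3 and 35.9 in WT, and the libraries overlapped. The upstream region, chr9:95510387-95512393, lies just over 1 kb from that start, so it counts as distal, and had folds of 22 and 16.8 in KO, against 55.9 and 43.1 in WT, where they did not overlap (log2 ratio -1.35). At the outermost start H3K27ac was called in 1 KO library, with a fold of 3.67, against 5.7 and 8.74 in WT. No MLL4 peak was called near PTCH1 in KO, while WT had the strongest MLL4 peak of all 7 windows close to the internal starts, with a fold of 11.7.

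SMO, the signal transducer, had H3K4me3 folds of 49.9 and 118 in KO, against 85.0 and 91.4 in WT, so the KO libraries lay on either side of both WT libraries. Its H3K27ac folds were 9.4 and 7.0 in KO, against 15.9 and 20.3 in WT, with no overlap. H3K4me1 near the SMO start covered 1464 bp in KO, in peaks on either side of the start, and 2798 bp in WT, in 1 peak across it.

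SUFU, the GLI inhibitor, had the strongest H3K4me3 of the 7 own promoters. Its folds were 205 and 212 in KO, against 268 and 286 in WT, all KO values below all WT values (log2 ratio -0.41, beside a genome-wide promoter median of -0.05). H3K27ac just inside the SUFU start had folds of 21.7 and 20.5 in KO, against 59.8 and 38.8 in WT. On the other side of the start it was 10.0 and 14.5 in KO, against 30.8 and 22.8 in WT. At both, the KO values lay below the WT values.

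GLI1, the effector that is induced by the pathway, had H3K4me3 folds of 93.4 and 84.7 in KO, against 79.1 and 90.1 in WT, with overlap. Its H3K27ac domain, which covers the lower-coordinate part of the gene, had folds of 4.56 and 13.3 in KO, against 23.6 and 21.8 in WT. This was the largest difference among the own-promoter H3K27ac regions (log2 ratio -1.54), and the KO libraries differed from each other by more than the WT libraries did. H3K4me1 at that end of GLI1 was called in KO as 4 peaks that covered 3666 bp in all, and the one next to the gene end was 1650 bp wide with a fold of 4.96. In WT it was 1 peak of 13044 bp with a fold of 12.2. An H3K27ac region before the other end of the GLI1 gene had folds of 3.75 and 3.86 in KO, with those peaks over 1 kb from the end, against 6.6 and 8.17 in WT. Just past that end, H3K27ac was called in both KO libraries, with folds of 3.88 and 4.43, and in 1 WT library, with a fold of 3.5.

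GLI2, the main activator, had H3K4me3 folds at its first start of 68.8 and 81.7 in KO, against 114 and 108 in WT. The genotypes did not overlap, and the log2 ratio of -0.57 was near the 10th percentile of retained promoters genome-wide (-0.58). The peaks were not narrower in KO: 2767 and 2954 bp in KO, against 2616 and 2602 bp in WT. H3K27ac there had folds of 5.62 and 5.54 in KO, against 15.6 and 10.8 in WT. At the second GLI2 start, the one poor in CpG, no library had H3K4me3, yet H3K27ac flanked it in all 4, with folds of 6.36 and 5.53 in KO and 7.49 and 9.48 in WT downstream of it. The peak of 5.53 lay 2311 bp from the start, and a nearer one of that library, with a fold of 4.06, lay 1184 bp from it. Within 1 kb of the start, each KO library had a peak on 1 side only, and each WT library had peaks on both sides. A broad H3K4me1 domain over that second start covered 3524 bp in KO, of which the peak over the start made up 1289 bp, and 12321 bp in WT.

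GLI3, mainly a repressor when cleaved, had no H3K4me3 and no H3K27ac anywhere in its 503 kb window in any library. At its lower-coordinate end MLL4 was not called in KO and was called in WT with a fold of 4.17.

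**Figure D1:**
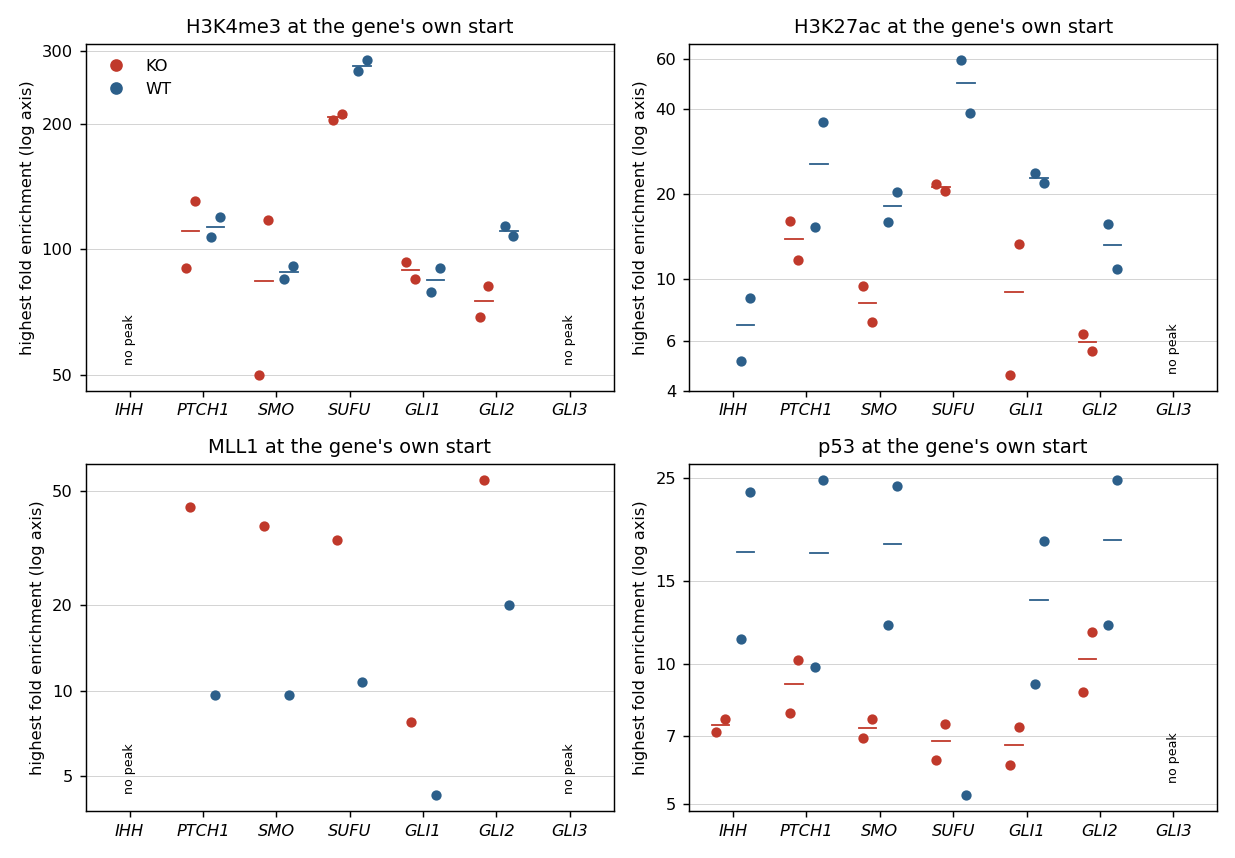
Highest fold enrichment (log axis) of the peaks within 1 kb of each gene's own starts, with KO points on the left and WT points on the right of each gene; every point is 1 library and the short line is the mean of 2. H3K27ac points lie lower in KO at SMO, SUFU, GLI1 and GLI2, IHH has H3K27ac points in WT alone, MLL1 points lie higher in KO, and IHH and GLI3 have no H3K4me3 peak.

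MLL1 differed in the opposite direction from H3K27ac at these starts. Its fold in the single libraries was 54.7 in KO and 19.9 in WT at the first GLI2 start, and 37.6 in KO and 9.67 in WT at SMO. At the PTCH1 internal starts it was 44 in KO and 9.67 in WT, and at SUFU 33.8 in KO and 10.7 in WT. All 5 retained own-promoter MLL1 regions were higher in KO, with a median log2 ratio of 1.65, beside 1.61 at retained promoters genome-wide. GLI1 had MLL1 peaks at different positions, one with a fold of 7.77 in KO only and one of 4.3 in WT only. The second GLI2 start had no MLL1 peak in KO and a small one in WT, with a fold of 4.01.

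p53 was called in all 4 libraries at the starts of IHH, PTCH1, SMO, GLI1 and GLI2, and 0 of 7 own-promoter p53 regions called in both WT libraries were lost, beside 4.7% of promoter regions genome-wide. Counted by gene starts, the genome-wide share was 2.68%. All 4 libraries called p53 at the starts of 42.4% of all protein-coding genes. Folds were lower in KO at all 7 own-promoter regions. At SMO they were 6.92 and 7.62 in KO, against 12.1 and 24.0 in WT. At GLI1 they were 6.08 and 7.31 in KO, against 9.06 and 18.3 in WT. At the first GLI2 start they were 8.71 and 11.7 in KO, against 12.1 and 24.7 in WT, so the highest KO value lay just under the lowest WT value. The median log2 ratio of the 7 was -1.14, beside -0.65 at retained p53 promoter regions genome-wide. SUFU stood apart: p53 was called in both KO libraries, with folds of 6.23 and 7.44, but in only 1 WT library, with a fold of 5.23. By the rule used, that region was not gained. p53 at such starts is common, since 50.2% of retained H3K4me3 regions genome-wide held p53 in all 4 libraries.

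None of the 7 merged own-promoter H3K4me1 regions called in WT was lost, beside 32.5% of promoter regions genome-wide. Counted by gene starts, the genome-wide share was 23.4%. Each of the 7 had a KO peak within 1 kb of a start. The called length was smaller in KO at each, with a median log2 ratio of -0.93, beside -0.82 at retained promoters genome-wide. At the internal PTCH1 starts, KO had peaks of 522 and 622 bp at the edges of the region, the nearer one 285 bp from the printed start, and none over the starts. In WT a single peak of 6299 bp spanned them.

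Across the whole windows of the Hedgehog genes, promoters included, less H3K27ac was called in KO. Peaks covered 161.85 and 124.34 kb of the 7 windows in KO, against 386 and 503.8 kb in WT, with no overlap. Over the genome they covered 62.6 and 51.6 Mb in KO, against 155 and 198 Mb in WT. GLI2 held the most in WT: 30.6 and 20.2 kb in KO, against 136 and 200 kb in WT, from 46 and 38 peaks in KO and 137 and 176 in WT. SUFU was next, with 63.4 and 49.2 kb in KO, against 118 and 143 kb in WT. As a share of the window, WT peaks covered 29.7 and 43.7% at GLI2 and 35.8 and 43.4% at SUFU, whose window is shorter. IHH had 17.6 and 11.6 kb in KO, against 43.5 and 55.3 kb in WT. In each of these 3 windows both KO values lay below both WT values. The same held for PTCH1, with 8.52 and 6.22 kb in KO, against 21.6 and 36.1 kb in WT, and for SMO, with 6.03 and 6.62 kb in KO, against 19.1 and 20.1 kb in WT.

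Relative to WT, GLI1 differed least of the 6 marked windows, with 35.7 and 30.5 kb in KO, against 47.8 and 49.3 kb in WT. Its window also holds 10 other protein-coding genes, that of SUFU 9, that of IHH 5 and that of SMO 2. The windows of PTCH1, GLI2 and GLI3 hold none. Regions are named by the window they lie in, and which gene they act on was not tested. H3K4me1 covered 106.8 kb of the 7 windows in KO and 458.21 kb in WT (49.7 Mb of the genome in KO and 218 Mb in WT), of which GLI2 had 16.7 kb in KO and 161 kb in WT. H3K4me3 coverage did not follow: 81.67 and 83.07 kb in KO, against 77.57 and 73.9 kb in WT.

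**Figure D2:**
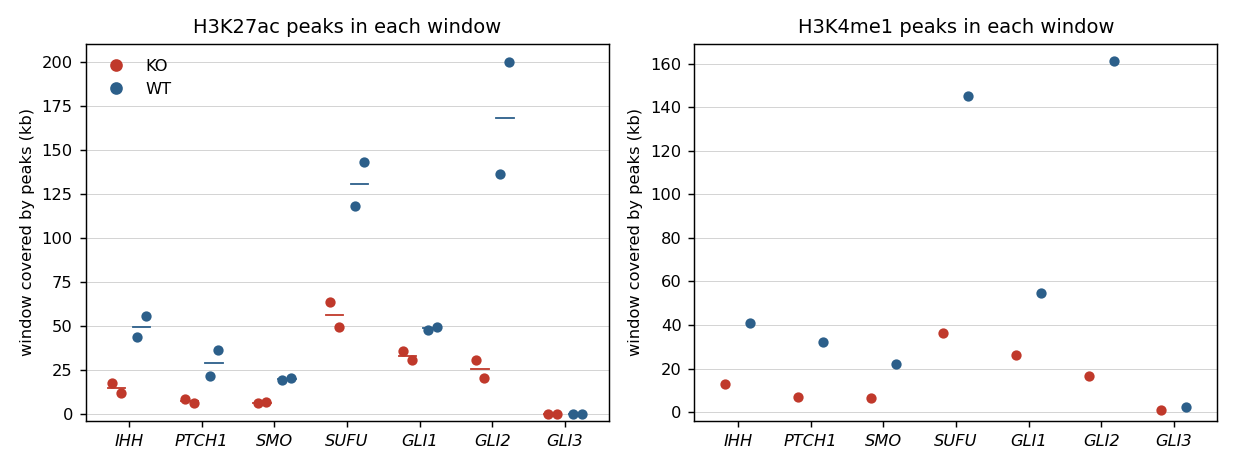
Length of each gene's window (gene body and 100 kb on either side) covered by H3K27ac peaks (left panel) and H3K4me1 peaks (right panel), in kb, with KO points left of WT points and 1 point per library. GLI2 has the widest gap in kb, with 30.6 and 20.2 kb of H3K27ac in KO and 136 and 200 kb in WT, and GLI3 has no H3K27ac in any library.

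Of 204 distal H3K27ac regions called in both WT libraries, 119 were lost (58.3%, Wilson 95% interval 51.5 to 64.9) and 41 were retained, beside 62.8% lost genome-wide. The share is thus near the background. None of 42 distal regions called in both KO libraries was gained, beside 5.51% genome-wide, but without the first KO library 8 were gained, without the second KO library 3, and without the second WT library 1. With lists of equal length, 25.7% were lost, beside 30.1% genome-wide.

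The genes differed in how many of their distal H3K27ac regions were lost. PTCH1 lost 16 of 21 (76.2%, interval 54.9 to 89.4), SMO 9 of 13 (69.2%), GLI1 8 of 12 (66.7%) and GLI2 62 of 99 (62.6%). IHH lost 7 of 15 (46.7%, interval 24.8 to 69.9) and SUFU 17 of 44 (38.6%, interval 25.7 to 53.4). The intervals cover counting error only, and neighbouring regions of 1 gene are not independent. GLI2 thus stands out for how many regions it lost, while its share with all called peaks was close to that of the genome. Its window, at 457 kb, is also the longest of those with H3K27ac, followed by that of SUFU at 331 kb. With lists of equal length GLI2 lost 10 of 32 (31.2%) and SUFU 3 of 21 (14.3%). The order of the genes changed at a −log10 q-value of at least 5. IHH then lost 9 of 11 (81.8%), GLI2 41 of 51 (80.4%), SMO 6 of 8 (75%) and GLI1 3 of 4 (75%). PTCH1 lost 6 of 9 (66.7%) and SUFU 17 of 30 (56.7%), beside 69.1% genome-wide.

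The strongest lost GLI2 region, chr2:120817307-120818962, lay 82.3 kb into the gene with H3K27ac folds of 7.79 and 7.43 in WT, and it overlapped H3K4me1 and MLL4 peaks of WT. The next, 22.6 kb into the gene, had folds of 6.6 and 8.17 in WT, and the third, 129.2 kb in, had 6.26 and 10.2 in WT. Both carried H3K4me1 in WT and no MLL4 peak. At PTCH1 the strongest lost region lay 105.2 kb downstream of the outermost start, with folds of 6.21 and 11.2 in WT. Another, 167.2 kb downstream, had 5.99 and 6.12 in WT and lay at an MLL4 peak of WT. At SUFU the strongest lost region, 149.6 kb downstream, reached 5.8 and 6.12 in WT.

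The regions that stayed were stronger in WT at the median, but the ranges overlapped. The lower of the WT folds had a median of 4.13 over the 119 lost regions (2.26 to 7.43) and 7.49 over the 41 retained ones (2.82 to 43.1). Median widths were 960 bp and 2097 bp. Among regions under a WT fold of 4, 55 of 70 were lost (78.6%), beside 83.1% genome-wide. Between 4 and 6 it was 60 of 96 (62.5%), beside 65.1%, and between 6 and 10 it was 4 of 28 (14.3%, interval 5.7 to 31.5), beside 26%. Of the 10 regions with a fold of 10 or more none was lost, beside 3.86% genome-wide.

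**Figure D3:**
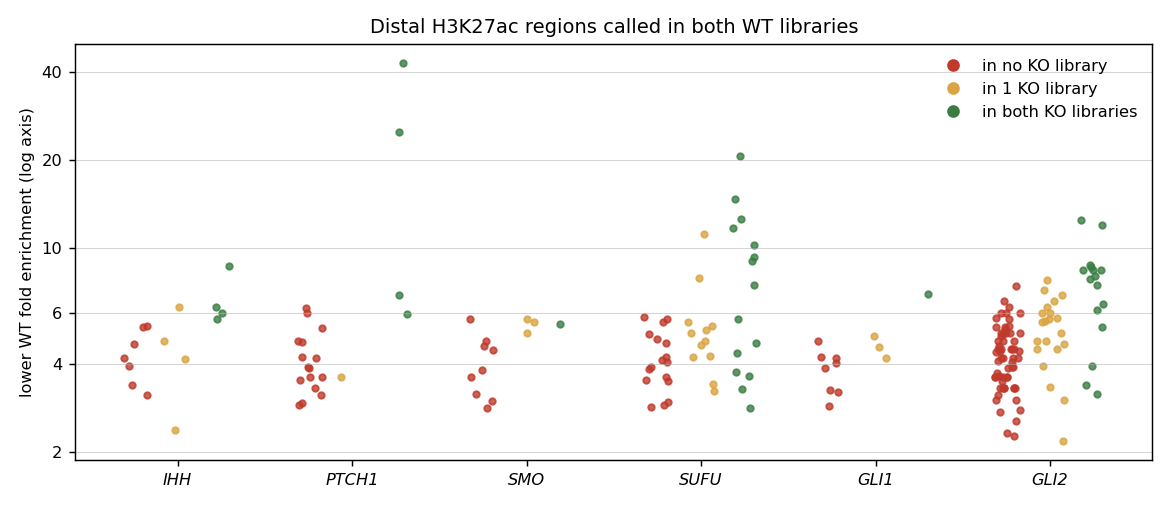
Lower of both WT fold enrichments (log axis) of each distal H3K27ac region called in both WT libraries, by gene, with 1 point per region and colour for the number of KO libraries that called it. Points called in no KO library lie at or below 7.43, while those called in both reach 43.1 at PTCH1; side-to-side spread within a colour carries no value.

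**Figure D4:**
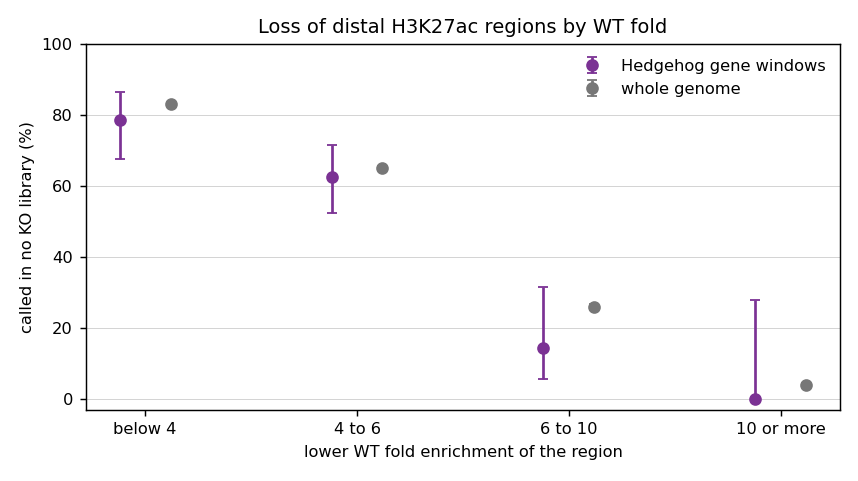
Percent of distal H3K27ac regions called in no KO library, by the lower WT fold of the region, in the Hedgehog gene windows (Wilson 95% intervals) and over the whole genome. Both decline with WT fold, and the genome-wide value lies within the interval of the Hedgehog windows in all 4 classes.

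Retained distal regions were weaker in KO at 35 of 41, with a median log2 ratio of -0.72, beside -0.7 genome-wide. The region with the lowest ratio lay 101.2 kb into SUFU, with H3K27ac folds of 5.4 and 5.43 in KO, against 14.7 and 33.0 in WT (log2 ratio -2.03). Another region of the SUFU window, 165.6 kb from the start and past the gene end, had 7.26 and 7.37 in KO, against 20.6 and 26.7 in WT. It held an MLL4 peak in WT. In GLI2 the region 35.6 kb into the gene had 7.56 and 7.37 in KO, against 14.4 and 12.5 in WT.

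At a few distal elements H3K27ac differed little or stayed high. The region 341 kb from the first GLI2 start had folds of 10.2 and 16.3 in KO, against 12.0 and 16.0 in WT. Around PTCH1, the region 58.1 kb upstream had 8.07 and 7.35 in KO, against 6.9 and 7.8 in WT, and the one 90.1 kb downstream of the outermost start had 16.0 and 17.4 in KO, against 25.1 and 25 in WT. The first 2 of these overlapped between genotypes and the last did not.

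H3K4me3 was called in all 4 libraries at 4 of the 41 retained distal H3K27ac regions, namely these 3 and the one next to the PTCH1 internal starts. In at least 1 library it lay at 13 of the 41 (31.7%), beside 35.2% genome-wide. The lost distal H3K27ac regions had it at 2 of 119 (1.68%), beside 2.16%. Of the 6 retained regions with a ratio above 0, the PTCH1 element upstream had H3K4me3 in all 4 libraries. The other 5, with 4 near SUFU and 1 near GLI2, had H3K4me3 in no library. At the element 340.6 kb from the GLI2 start, H3K4me3 folds were 18.7 and 19.3 in KO, against 9.71 and 4.26 in WT. At the PTCH1 element 57.6 kb upstream they were 12.8 and 18.9 in KO, against 6.48 and 3.99 in WT. A region 64.3 kb from the IHH start had 73.1 and 81.4 in KO, against 33.4 and 21.5 in WT. In each of these 3 every KO value exceeded every WT value, with log2 ratios of 1.56, 1.61 and 1.53, beside a median of 0.23 and a 90th percentile of 1.06 over retained distal H3K4me3 regions genome-wide. The PTCH1 element 90.2 kb downstream did not share this, with 81.4 and 50.7 in KO, against 59.1 and 86.4 in WT.

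In the GLI2 window 3 short distal H3K4me3 peaks were called in both KO libraries and neither WT library, at 55.7 and 40.3 kb upstream and 335.5 kb downstream of the first start, beside 6.64% of distal H3K4me3 regions gained genome-wide (3 of 7 regions called in both KO libraries). Their folds ranged from 5.15 to 7.61, near the low end of the KO lists, whose median folds were 61.7 and 83.8. One region 199.5 kb into GLI2 was lost, with no KO peak and H3K4me3 folds of 5.11 and 8.01 in WT (1 of 6 distal regions called in both WT libraries, beside 14.3% genome-wide). These were the only distal H3K4me3 regions of the 7 windows that were gained or lost.

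Distal H3K4me1 was also called at fewer places in KO. Of 160 distal H3K4me1 regions in WT, 142 were lost (88.8%, interval 82.9 to 92.8), beside 86.8% genome-wide, and 9 of 27 KO regions were gained, beside 34.9%. In GLI2, 31.2 kb into the gene, H3K4me1 was called over 3144 bp in KO and 18403 bp in WT, with folds of 3.67 in KO and 7.51 in WT. Of the 119 lost H3K27ac regions, 5 overlapped H3K4me1 in KO (4.2%, beside 3.76% genome-wide) and 69 in WT (58%, beside 49.2%). Of the 41 retained ones 11 did in KO (26.8%, beside 41.2%) and 39 in WT (95.1%, beside 90.6%).

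**Figure D5:**
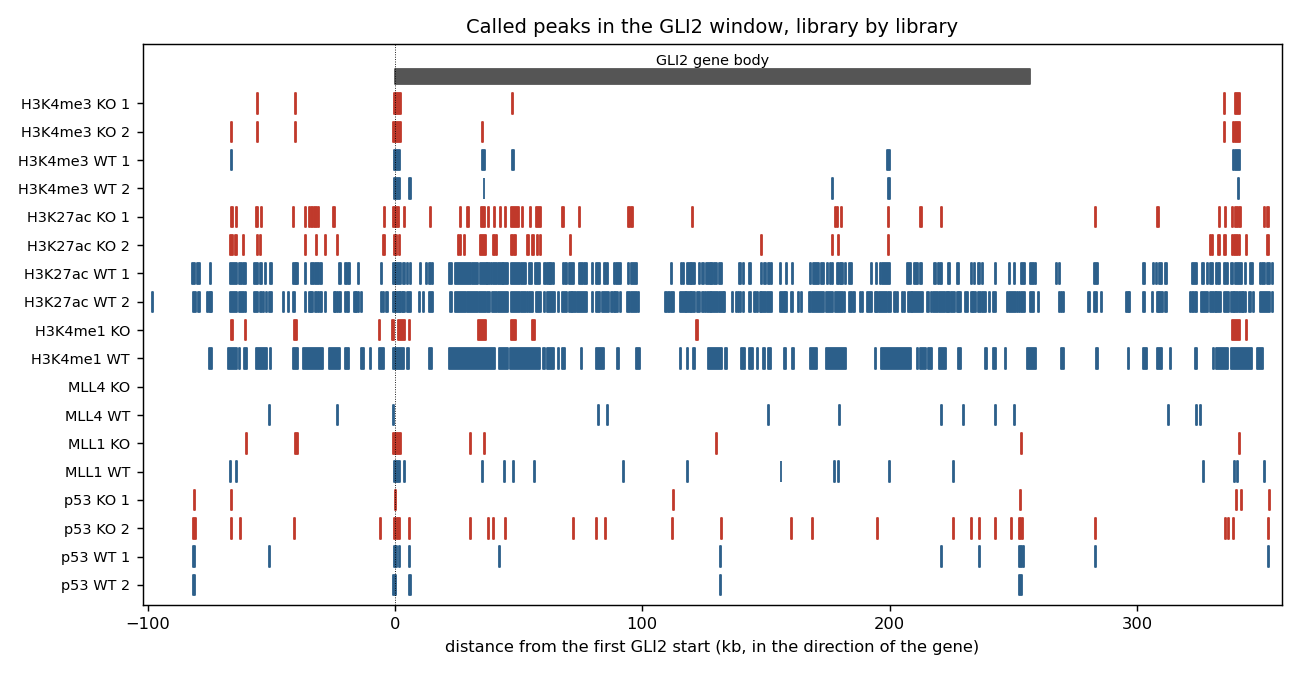
Peaks called in the GLI2 window, by distance from the first GLI2 start in kb, with 1 row per library and KO rows (red) above WT rows (blue) of each target; very short peaks are drawn at a least width so that they can be seen. H3K27ac and H3K4me1 rows across the gene body are sparse in KO and dense in WT, while the start has H3K4me3 and MLL1 in both, as does a cluster of marks near the right edge.

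MLL4 itself was called at 0 places in the 7 windows in KO and at 107 in WT, beside 99.8% of WT MLL4 regions lost genome-wide. SUFU had 35 of them, GLI1 18, GLI2 14, IHH 12, PTCH1 12, SMO 10 and GLI3 6. A peak of H3K4me3, H3K27ac or H3K4me1 of WT lay at 83 of the 107 (77.6%), beside 56.3% genome-wide, but at 0 of the 6 near GLI3. In GLI2, 8 of the 62 lost H3K27ac regions (12.9%) overlapped an MLL4 peak of WT. Over all 7 genes, 13 of 119 lost regions (10.9%) and 8 of 41 retained ones (19.5%) held an MLL4 peak in WT, beside 8.88% and 24.0% genome-wide. MLL4 folds in the windows were low, with a median of 4.17, so a site below the calling limit would not be seen.

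Away from promoters, MLL1 peaks seldom coincided between the single KO and WT libraries. Of 73 MLL1 regions in WT, 48 were lost, beside 55.4% genome-wide, and of 54 in KO 29 were gained, beside 48.3%. Among distal ones 45 of 46 were lost, beside 80.7%, and 24 of 25 were gained, beside 73.7%. Most were weak, and the lost distal ones had a median fold of 3.86 in WT with none above 5.91. The strongest gained one, with a fold of 10.4 in KO, lay in the IHH window, at the element with higher H3K4me3 in KO, 64.4 kb from the IHH start. The single retained one lay at the PTCH1 element 90.2 kb downstream, with folds of 31.6 in KO and 11.3 in WT. With peaks of a −log10 q-value of at least 5, 2 of 21 MLL1 regions were lost (9.52%).

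Of the 51 p53 regions that both WT libraries called in the 7 windows, 33 were retained and 4 were lost, beside 12.7% lost genome-wide. Of the 51 called in both KO libraries 14 were gained, beside 17.6%. Among distal ones 11 of 24 were retained and 3 lost, beside 19.2%, and 8 of 20 were gained, beside 21.9%, with 5 of these near SUFU, 2 near GLI2 and 1 near GLI1. The lost count rests on the libraries: without the second KO library 37% were lost, and without the second WT library 19.1%. The second KO p53 list was the longest, with 62248 peaks, against 24972 in the first KO list and 36525 and 32631 in WT.

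All 11 retained distal p53 regions lay at H3K27ac of both WT libraries, as did 4840 of 5452 genome-wide, and at 5 of them H3K27ac was called in neither KO library (45.5%, beside 37.1% of retained distal p53 regions genome-wide). One of these, 252.8 kb into GLI2, had p53 folds of 4.08 and 6.98 in KO, against 9.82 and 27.5 in WT. Another, 81 kb upstream of GLI2, had 4.6 and 5.71 in KO, against 12.4 and 18.2 in WT. PTCH1 had a pair of them and GLI1 one, and that of GLI1, 35.4 kb from its lower-coordinate end, had 6.64 and 8.89 in KO, against 7.98 and 20.8 in WT.

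Of the 3 lost distal p53 regions, 1 each lay near GLI3, IHH and SUFU. GLI3 had 4 distal p53 regions called in both WT libraries and retained 0. Its lost region, chr7:41965384-41966548, had no p53 peak in KO and folds of 14.3 and 19.0 in WT. Further into the gene, 275.8 kb from the lower-coordinate end, the first KO library had no p53 peak and the second had a fold of 4.44, against 8.31 and 29.6 in WT. The histone peaks of the GLI3 window were H3K4me1 only, 1 in KO and 3 in WT. The retained one lay 17.8 kb outside the gene, with folds of 3.82 in KO and 4.23 in WT.

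The other genes of the pathway were counted in the same way. Of 28 further Hedgehog genes, 21 had H3K4me3 at the start in every library, beside 60.3% of all protein-coding genes, and SHH had it in some. DHH, SCUBE2, HHIP, EVC, EVC2 and KIF7 had none. H3K27ac was called at the start in every library for 20, beside 63.4% of all genes. It was called in both WT libraries and no KO library, as at 9.02% of all genes, for SHH, a ligand, SCUBE2, which helps release ligands, HHIP, a decoy receptor, and EVC2, a cilium protein. Their windows lost 244 of 422 distal H3K27ac regions (57.8%, beside the 62.8% genome-wide), retained 106 and gained 6 of 114 called in both KO libraries (beside 5.51%). The most were lost at PRKACA, a catalytic subunit of protein kinase A (27 of 41), TULP3, a ciliary trafficking factor (24 of 27), and SHH (20 of 29). The most were retained at SPOP, an adaptor for GLI degradation (15), the kinase CSNK1A1 (13) and BTRC (12).

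The genes most like each member were ranked by distance over the 18 lists, on log2 of covered kb plus 1. For GLI2 the nearest were PSMB7 and COL27A1, each at 1.62, then WNK2 at 1.64. For SUFU they were ATP5PD at 0.68, MRPL58 at 0.75 and ACSF2 at 0.87, and for SMO EMILIN2 at 0.68 and LPIN2 at 0.75. For GLI3 they were GPC6 at 1.28, CADM1 at 1.42 and FGF14 at 1.48, and for PTCH1 NINL at 1.08, WDPCP at 1.2 and GJA3 at 1.24. For IHH they were RABL2B at 0.72, ACR at 0.74 and IFNL1 at 0.86, and for GLI1 ATP6V1G2 at 1.27, DDX39B at 1.29 and POLH at 1.39. GLI2 was therefore the member with the least close match.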

How the data were processed

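The deposited files were 18 peak lists, 1 per ChIP library, and the 2 inputs of the series were not analysed here. Peaks were called with MACS2 2.1.1 on hg38, per the submitters' processing notes, and the peak names in the deposited lists show each library called alone against the input of its genotype, so each genotype rests on 1 input. The choice of aligner, read filters and sequencing depth is not given in the sources used here. The deposited values of a peak are its fold enrichment, which is a ratio, its −log10 p-value, its −log10 q-value and a score, which was not used. Chromosomes 1 to 22 and X were used. Peaks of a target were merged where they overlapped by at least 1 bp.

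The design named gene ends for promoters. Starts from the RefSeq promoter table were added, since it gives strand and internal starts, and gene ends alone were tried as an alternative. GLI1 and GLI3, which were not matched there, used either end, with distances from the lower-coordinate end. A region ratio is the mean of the log2 KO folds minus the mean of the log2 WT folds. A length ratio is log2 of the mean KO over the mean WT called length. Wilson 95% intervals cover counting error only. The steps were checked on simulated peaks.

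The members and gene lists were chosen with earlier results of these data known. All 7 members were named. The 3 genes most like each member in covered length were named, apart from 1 that is not reported here. For each, the rule allowed up to 3 lost and 3 retained distal H3K27ac regions with the highest lower WT fold, and up to 5 p53 and MLL1 regions. The distal H3K4me3 and H3K4me1 regions, the retained H3K27ac regions with the lowest or least changed ratio and the retained p53 regions were chosen after their values were seen. Python 3.11.15, pandas 2.3.3 and numpy 2.4.6 were used. In the files, 0 columns of per-sample values were unused.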

Additional observations from a re-analysis of the deposited data

How the results depend on the processing

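Of 78 recomputed summary values over all 7 genes, 57 moved by less than the interval or the count limit set for them. Values of single genes were counted apart. Of their recomputed shares of lost distal H3K27ac, 9 stayed within the interval and 9 did not. H3K4me3 together with H3K27ac at the starts was called in every library at 5 of 7 genes under all alternatives run. These, like the definition of distal by gene ends alone, were chosen after seeing the data, and all count among the 57. The share of all genes with this pair was not computed. At a −log10 q-value of at least 5, 72.6% of distal H3K27ac regions were lost (genome 69.1%), 96.3% of distal H3K4me1 with 1 gained (genome 97.8% lost), and 9.52% of MLL1. With lists of equal length these were 25.7% of H3K27ac with 4 gained (genome 30.1%), 74% of H3K4me1 with 16 gained (genome 70.1%), and 0% of H3K4me3. With the gene body alone, 95.3% of distal H3K4me1 were lost and 3 gained, and 80% of MLL1 were lost. Distal H3K4me1 without an H3K4me3 peak was lost at 94.6%. Leaving out 1 library each gave 62.3 to 74.5% of distal H3K27ac lost and 0 to 8 gained, 3.12 to 25% of H3K4me3 lost, and 7.84 to 37% of p53 lost. The cause was not tested. MLL4 at equal list length left no peak in the windows and gave no value. No paired analysis was possible because no result comes from a test. Depth is unknown, so a region that fell under the calling limit and one that is absent cannot be told apart.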
